A study of Mus musculus with 3 samples.

Results

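The genes described here carry and answer the cyclic AMP (cAMP) signal in mouse dermal fibroblasts. They were taken from a list of 10 symbols, by keeping every probe set annotated to exactly 1 of them, and 9 of the 10 were found among 7842 named genes. The 9 are the protein kinase A (PKA) genes Prkaca and Prkar1a, the PKA inhibitor gene Pkia, the phosphodiesterase gene Pde4b, the transcription factor genes Creb1, Crem and Nfil3, and the target genes Nr4a1 and Per1. Together they had 13 probe sets. Prkar2b, which encodes another PKA regulatory subunit, had no probe set among those used here.

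RNA was measured on Affymetrix expression arrays in cultured dermal fibroblasts of 3 genotypes, with 1 array column per genotype. FGFR3Act cells came from mice with the Fgfr3 G374R allele without the neo cassette (Fgfr3G374Rneo-), in which this fibroblast growth factor receptor signals without ligand. FGFR3KO cells came from mice that carry the same allele with neo retained (FGFR3G374Rneo+) and make no functional receptor, and FGFR3WT cells from wild-type Bl6 mice. Both mutants thus share the G374R allele and differ from each other by the cassette. All cultures were untreated. No source used here gives the strain of the mutant mice, the animals' age or how many animals each culture came from. The series text states n = 3 for each group, and it does not say if the single column stands for 1 culture, several pooled or their average. No spread between replicates could therefore be computed, no difference was tested, and every difference is one between 2 arrays.

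In cAMP signalling, receptors coupled to the stimulatory G protein switch on adenylyl cyclases, which make cAMP, and phosphodiesterases break it down. cAMP binds the regulatory subunits of PKA and frees its catalytic subunits, which phosphorylate CREB on DNA. CREB binds the cAMP response element and turns on early genes, among them short forms of Crem that repress the same element and so close the loop. In fibroblasts, raised cAMP is known to oppose activation into matrix-producing myofibroblasts.

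Signals are MAS5 intensities in arbitrary units. A floor was set on each array at its 40th percentile (123 on FGFR3Act, 122 on FGFR3KO and 121 on FGFR3WT), signals below it were raised to it, and a gene was compared in a pair if at least 1 array was above it. Where 1 array of a pair was at the floor, the fold is a bound and is written "at least". The 1 Fgfr3 probe set read 2.42 on FGFR3Act and 3.76 on FGFR3KO, against 1.06 on FGFR3WT, all below the floor, so it could not check the genotypes. The fibroblast markers on the arrays, 11 of 13 listed, were above the floor on all 3 arrays. They summed to 53170 on FGFR3Act and 77239 on FGFR3KO, against 57807 on FGFR3WT. Macrophage markers set FGFR3Act apart: of 16 on the arrays, 13 were above the floor on FGFR3Act, against 1 on FGFR3KO and 1 on FGFR3WT. Their summed signal was 42153 on FGFR3Act, against 1251 on FGFR3KO and 1136 on FGFR3WT, and the macrophage receptor gene Adgre1 had 885 on FGFR3Act, against 23.3 on FGFR3KO and 12.8 on FGFR3WT. Ptprc, Itgam and Aif1 were below the floor on every array. Fewer cells of a type and less RNA per cell cannot be told apart in such bulk samples. The 3' to 5' ratio of the beta-actin control probe sets, a sign of RNA integrity, was 1.44 on FGFR3Act, 1.82 on FGFR3KO and 1.64 on FGFR3WT.

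Among the 9 genes, Pkia was far lower on FGFR3KO than on either other array, and Crem was higher and Nfil3 lower on FGFR3Act. Nr4a1 and Prkar1a were also higher on FGFR3Act, by less than 2-fold, and Prkaca differed little. Creb1 and Per1 were below the floor on all 3 arrays. Of the 13 probe sets, 8 were above the floor on at least 1 array, and these represented 7 of the 9 genes.

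**Figure D1:**
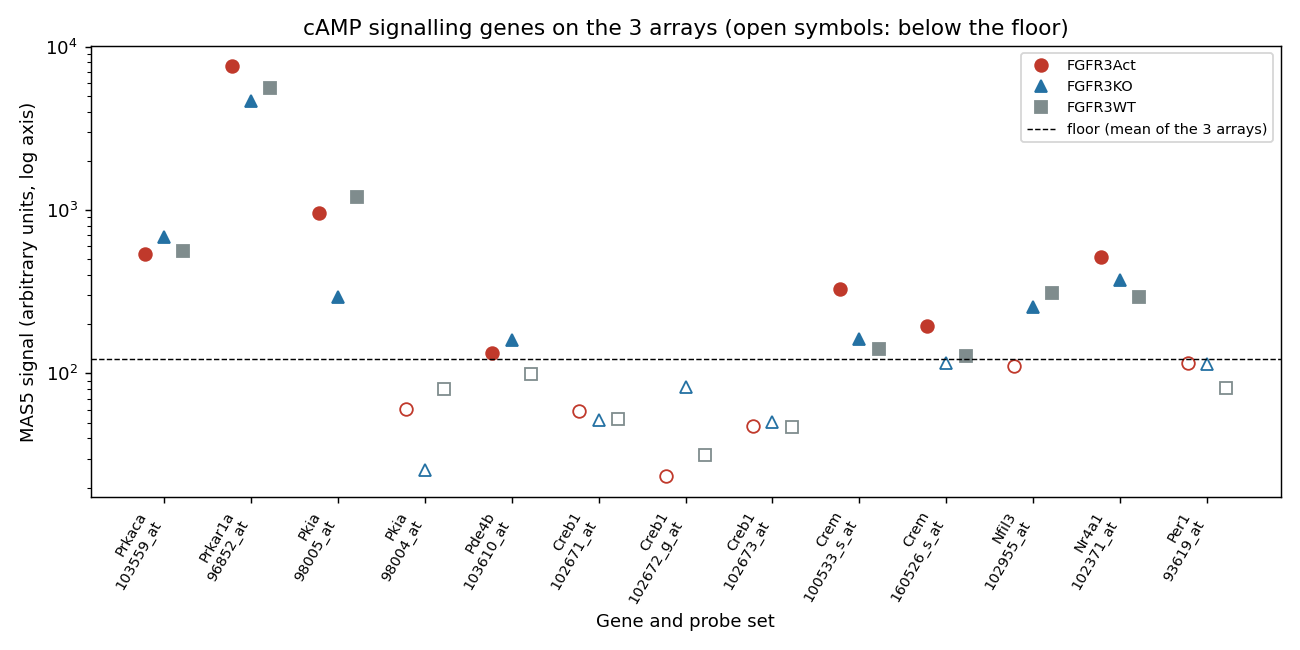
MAS5 signal (log axis) of each of the 13 probe sets on FGFR3Act (circles), FGFR3KO (triangles) and FGFR3WT (squares), 1 array each, with open symbols below the floor (dashed line). Pkia stands lowest on FGFR3KO at 291, Crem highest on FGFR3Act at 328 in its brighter probe set, and the Creb1 and Per1 symbols are all open.

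Against FGFR3WT, 1 of 7 genes compared was at least 2-fold higher on FGFR3Act (Crem) and 1 at least 2-fold lower (Nfil3). Over all 5244 genes compared in that pair, 4.14% were higher and 4.79% lower by that much. After median centring of the arrays 64.6% of the genes 2-fold apart were higher on FGFR3Act, against 46.4% as deposited. On FGFR3KO, 0 of 7 were higher by 2-fold or more, and 1 (Pkia) was lower by 2-fold or more, than on FGFR3WT. The shares over all 5184 genes were 1.93% and 3.61%, and median centring brought the higher share of the 2-fold calls to 55.4%, against 34.8% as deposited. Between the mutants, Pkia and Crem were past 2-fold upward on FGFR3Act and Nfil3 past 2-fold downward, which is 2 and 1 of 7, beside 8.33% and 7.49% of all 5297 genes. With 7 genes, 1 gene is 14.3% of them, so these counts say little about the genes as a group. Their median log2 difference was 0.14 for FGFR3Act against FGFR3WT, 0.20 for FGFR3KO against FGFR3WT and 0.47 for FGFR3Act against FGFR3KO, where the medians over all genes were -0.07, -0.02 and -0.05. The FGFR3WT array is shared by the first and the second of these pairs.

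How far 2 probe sets of the same gene disagreed gives a sense of scale, although it is not the spread between cultures. Of 352 genes, 2 probe sets each cleared the floor on every array, and the log2 differences of the 2 probe sets lay a median of 0.31 apart for FGFR3Act against FGFR3WT, and 90% of genes were within 0.87. These values were 0.38 and 0.92 for FGFR3KO against FGFR3WT, and 0.42 and 1.25 for FGFR3Act against FGFR3KO. Of the 7 genes, Crem and Nfil3 in the first pair and Pkia in the other pairs exceeded the 90% value.

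**Figure D2:**
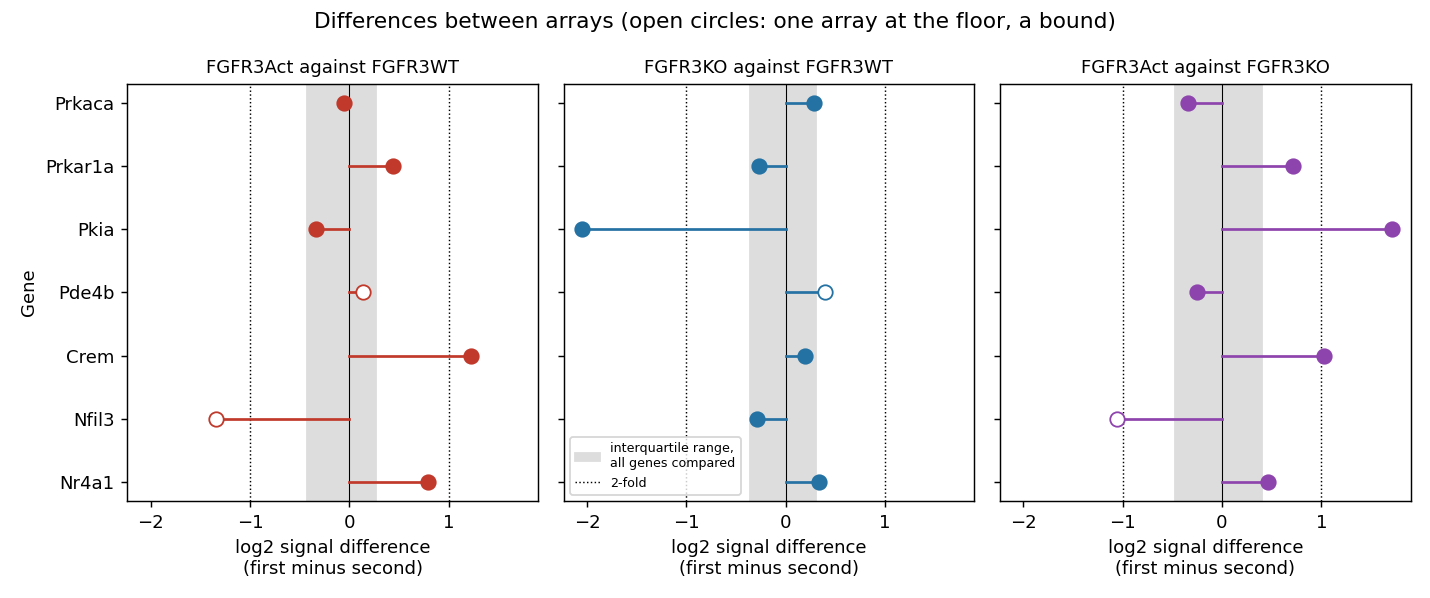
Difference in log2 signal for the 7 genes above the floor in a pair, 1 panel per pair of arrays, with the interquartile range of all genes compared in grey and 2-fold as dotted lines. Open circles are bounds. Pkia reaches -2.05 on FGFR3KO against FGFR3WT, while Prkaca stays between -0.34 and 0.29 in the 3 panels.

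The catalytic subunit of PKA came first in the order of roles. Prkaca, which encodes the alpha form of the kinase itself, had signals of 540 on FGFR3Act and 682 on FGFR3KO, against 559 on FGFR3WT. FGFR3KO was the highest array and the others lay close together. The differences were 1.22-fold higher on FGFR3KO than on FGFR3WT and 1.26-fold lower on FGFR3Act than on FGFR3KO. FGFR3Act differed from FGFR3WT by a log2 value of -0.05, which took either sign across the processing settings (-0.05 to 0.10).

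Prkar1a encodes a regulatory subunit that holds the catalytic subunits inactive until cAMP binds, and lies at chr11:109649023-109669663 (GRCm38.p6). It had signals of 7557 on FGFR3Act and 4614 on FGFR3KO, against 5556 on FGFR3WT, far above the floor on each array. FGFR3Act was the highest array and FGFR3KO the lowest. Relative to FGFR3WT the gene was 1.36-fold higher on FGFR3Act and 1.20-fold lower on FGFR3KO, and it was 1.64-fold higher on FGFR3Act than on FGFR3KO. As many as 14.8% of all genes compared were at least that much higher between the mutants. Its difference was within the 90% range of paired probe sets in each pair.

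Pkia encodes a small protein that occupies the substrate site of the free catalytic subunit, blocks it and carries it out of the nucleus. The gene lies at chr3:7366604-7445366. Its brighter probe set had signals of 953 on FGFR3Act and 291 on FGFR3KO, against 1203 on FGFR3WT. FGFR3KO stood apart from the other arrays, which were 1.26-fold from each other with FGFR3Act the lower. Pkia was 4.13-fold lower on FGFR3KO than on FGFR3WT, a log2 difference of -2.05, and only 12 of 5184 genes, itself included, were as low or lower. Between the mutants it was 3.27-fold higher on FGFR3Act. Its other probe set had 60.8 on FGFR3Act, 25.7 on FGFR3KO and 80.5 on FGFR3WT, below the floor on each, so it gives no second measurement. Averaging both probe sets at the floor gave a log2 difference of -1.02 on FGFR3KO against FGFR3WT and 0.86 between the mutants. Macrophage markers were about as low on FGFR3KO as on FGFR3WT, with summed signals of 1251 and 1136. Skeletal muscle markers summed to 1808 on FGFR3KO and 1199 on FGFR3WT, and melanocyte and Schwann cell markers to 641 and 354. The part of any cell type in the Pkia difference was not tested.

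Pde4b encodes a phosphodiesterase that breaks down cAMP. It had signals of 133 on FGFR3Act and 159 on FGFR3KO, against 99.7 on FGFR3WT, the last below the floor. All 3 values lay near the floor, so little can be read from their order. Relative to FGFR3WT it was higher by at least 1.10-fold on FGFR3Act and by at least 1.32-fold on FGFR3KO.

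Among the transcription factors, Creb1, the main PKA-phosphorylated activator, could not be compared. Its 3 probe sets had signals of 23.4 to 58.5 on FGFR3Act, 50.2 to 82.6 on FGFR3KO and 31.7 to 52.9 on FGFR3WT. All of these lie below the floor, where MAS5 signals have no usable order.

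Crem encodes both activators and repressors that bind the cAMP response element, and the probe sets do not tell these forms apart. Its brighter probe set had signals of 328 on FGFR3Act and 161 on FGFR3KO, against 140 on FGFR3WT. FGFR3Act was the high array, and the others lay within 1.15-fold of each other. Their signals were not far above the floors (122 on FGFR3KO and 121 on FGFR3WT), so the folds of Crem rest on weak signals. On FGFR3Act, Crem exceeded its FGFR3WT signal 2.33-fold and its FGFR3KO signal 2.03-fold. The other probe set had 194 on FGFR3Act and 116 on FGFR3KO, against 127 on FGFR3WT, and differed by 1.53-fold in the first of these pairs and at least 1.59-fold in the other. Both probe sets are of the _s_ kind, which can match several transcripts. The higher Crem signals came from the array with the macrophage markers (summed signal 42153), whose part in the difference was not tested, nor in those of Nfil3 and Nr4a1.

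Nfil3 encodes a basic leucine zipper repressor of clock and immune genes and lies at chr13:52967209-52982878. It had signals of 111 on FGFR3Act and 254 on FGFR3KO, against 310 on FGFR3WT. FGFR3Act was below the floor, and FGFR3KO lay 1.22-fold below FGFR3WT. On FGFR3Act, Nfil3 was lower than on FGFR3WT by at least 2.53-fold and lower than on FGFR3KO by at least 2.07-fold. It was thus the gene of the 7 that stood furthest below wild type on the array where Crem stood furthest above it.

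Of the targets, Nr4a1 encodes an orphan nuclear receptor that is switched on within minutes by cAMP and growth factors, and lies at chr15:101253902-101274795. It had signals of 512 on FGFR3Act and 371 on FGFR3KO, against 295 on FGFR3WT. The order was FGFR3Act, FGFR3KO, FGFR3WT, with steps of 0.47 and 0.33 in log2. Relative to FGFR3WT, Nr4a1 was 1.74-fold higher on FGFR3Act and 1.26-fold higher on FGFR3KO. In the first pair 6.54% of all genes were at least as far above, and the gap stayed within the 90% range of paired probe sets. The clock repressor Per1, also an early cAMP target, had signals of 116 on FGFR3Act and 115 on FGFR3KO, against 80.9 on FGFR3WT. Each was below the floor, so Per1 was not compared.

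The promoters were read for the letters that CREB is known to bind. The full element is TGACGTCA, which reads the same on both strands, and the short element is TGACG on either strand, so that each full element also holds 2 short ones. RefSeq promoter windows of GRCm38.p6, 250 bases before to 50 bases after a transcription start, were matched by symbol for 8 of the 10 listed genes, with 19 windows. Crem and Pkia were not matched. The full element stood in windows of Prkar1a alone, and the short element in windows of 6 of the 8 genes, which leaves Creb1 and Prkar2b without it in these windows. Counted in the same way, by gene over any of its windows, 2.03% of 27025 genes held the full element and 23.0% the short one. By window, 1.79% and 20.8% of all 32851 held them. Genes with more windows, such as Prkar1a and Pde4b, have more chances of a match. A match describes the letters and is not a measured binding site.

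Windows of 3 genes are printed because they hold the full element (Prkar1a), most short elements (Nr4a1) or belong to the gene that stood furthest below FGFR3WT on FGFR3Act (Nfil3). Letters of the full and short elements are in capitals, and each window is written 5′ to 3′ on the gene's strand. The Prkar1a window is chr11:109650699-109650998 on the plus strand, with the full element starting 49 bases upstream of that start. The Nr4a1 window is chr15:101266596-101266895 on the plus strand, with short elements starting 233, 213, 69 and 40 bases upstream. The Nfil3 window is chr13:52980990-52981289 on the minus strand, with 1 short element 59 bases upstream. Stretches of 28 bases around the full element of 2 response genes on the arrays, Dusp1 (chr17:26508598-26508625, minus strand) and Btg2 (chr1:134079304-134079331, minus strand), are set beside them. The response gene Sst also holds the full element and is on the arrays, but was below the floor on each and is not printed.
Prkar1a: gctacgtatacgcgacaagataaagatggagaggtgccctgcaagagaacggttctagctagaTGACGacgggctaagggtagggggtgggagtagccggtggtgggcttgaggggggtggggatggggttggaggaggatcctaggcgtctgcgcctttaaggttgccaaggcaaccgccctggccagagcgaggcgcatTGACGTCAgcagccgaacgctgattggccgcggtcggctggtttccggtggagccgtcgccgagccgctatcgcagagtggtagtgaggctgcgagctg
Nr4a1: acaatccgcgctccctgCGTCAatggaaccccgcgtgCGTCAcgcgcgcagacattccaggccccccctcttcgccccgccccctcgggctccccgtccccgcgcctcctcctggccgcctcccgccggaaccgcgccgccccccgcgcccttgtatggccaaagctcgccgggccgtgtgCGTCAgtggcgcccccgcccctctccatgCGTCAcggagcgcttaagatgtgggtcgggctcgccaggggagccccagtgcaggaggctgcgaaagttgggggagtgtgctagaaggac
Nfil3: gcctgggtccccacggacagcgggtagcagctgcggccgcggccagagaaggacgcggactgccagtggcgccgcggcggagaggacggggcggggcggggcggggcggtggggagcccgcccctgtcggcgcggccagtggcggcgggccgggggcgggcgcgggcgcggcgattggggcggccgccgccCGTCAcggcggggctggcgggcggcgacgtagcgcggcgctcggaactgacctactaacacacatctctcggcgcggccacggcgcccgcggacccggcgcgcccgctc
Dusp1: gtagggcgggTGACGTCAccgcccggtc
Btg2: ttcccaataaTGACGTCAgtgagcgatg

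The printed genes did not share a direction in every pair. Those with the full element, Prkar1a, Dusp1 and Btg2, were all higher on FGFR3Act than on FGFR3WT, by 0.44, 0.81 and 0.25 in log2. On FGFR3KO against FGFR3WT their log2 differences were -0.27, -0.61 and 0.63. These printed genes do not stand for all genes with the full element. On FGFR3Act against FGFR3WT, 3.25% of all 154 such genes compared were at least 2-fold higher and 5.84% lower, with a median of -0.12. Among genes with neither element, 4.44% were higher and 4.93% lower. Btg2 was chosen after its values were seen. Beside the windows above, Nr4a1 had 4 short elements and stood 1.74-fold above FGFR3WT on the FGFR3Act array. Nfil3 had 1 short element and was lower there by at least 2.53-fold. Whether the number of short elements goes with the direction of a gene was not tested. Of 1435 genes with the short element alone, 2.51% were past 2-fold upward and 3.28% downward for FGFR3Act against FGFR3WT. Among genes with neither element these shares were 4.44% and 4.93%, and the median was -0.07 in each group. Dusp1, which encodes a phosphatase of MAP kinases, had signals of 3987 on FGFR3Act and 1488 on FGFR3KO, against 2275 on FGFR3WT. Btg2, which encodes an antiproliferative protein, had 1558 on FGFR3Act and 2016 on FGFR3KO, against 1307 on FGFR3WT, so its highest array was the lowest for Dusp1.

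**Figure D3:**
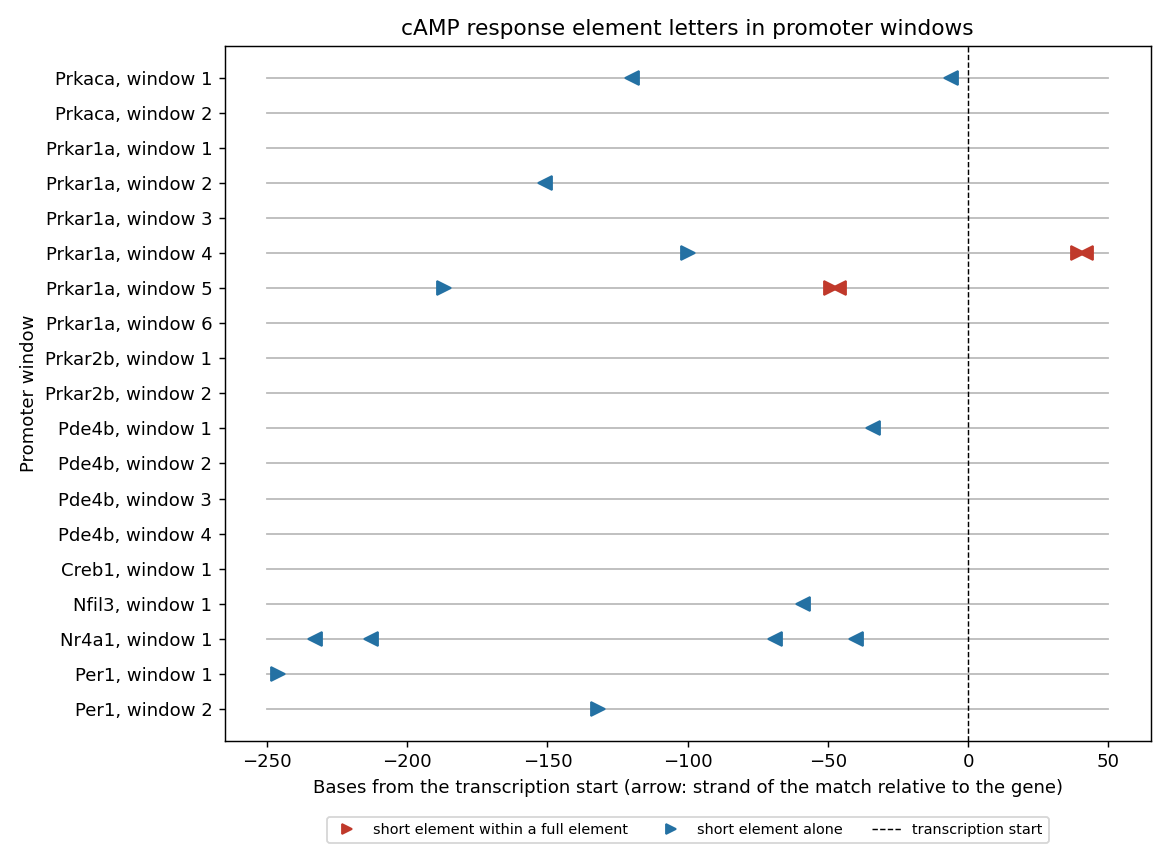
Position of the full and short cAMP response elements in the 19 promoter windows of 8 genes, in bases from the transcription start, with arrows for the strand of the match. Nr4a1 holds 4 short elements, and the full element of Prkar1a lies in 2 overlapping windows, where it is the same element counted from 2 starts.

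The wider pathway was read from 5 lists, written from textbook knowledge with earlier results of these data known. In the list of cAMP production, 27 of 38 receptors, G proteins and cyclases were on the arrays. Of 16 compared on FGFR3Act against FGFR3WT, 1 was at least 2-fold higher and 1 lower, with a median log2 difference of 0.12. These are 6.25% each, near the shares of all genes (4.14% higher and 4.79% lower). Ptger4, a receptor through which prostaglandin E2 raises cAMP, had a signal of 454 on FGFR3Act and 347 on FGFR3KO, against 195 on FGFR3WT. That is 2.33-fold higher on FGFR3Act and 1.78-fold higher on FGFR3KO. The adenylyl cyclase gene Adcy2 had 298 on FGFR3Act and 462 on FGFR3KO, against 608 on FGFR3WT, 2.04-fold lower on FGFR3Act.

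On FGFR3KO against FGFR3WT, 1 of 17 genes of cAMP production was at least 2-fold higher and 1 lower (median -0.05), or 5.88% each, beside 1.93% and 3.61% of all genes. Gnai1, which encodes an alpha subunit that inhibits adenylyl cyclase, had a signal of 932 on FGFR3Act and 239 on FGFR3KO, against 761 on FGFR3WT. It was 3.19-fold lower on FGFR3KO, which was the lowest array for Pkia too. The cyclase gene Adcy4 had 141 on FGFR3Act and 372 on FGFR3KO, against 137 on FGFR3WT, 2.71-fold higher on FGFR3KO. Its signals on FGFR3Act and FGFR3WT were not far above the floors (123 and 121), so the size of its folds is uncertain. Between the mutants Gnai1 (3.90-fold higher on FGFR3Act) and Adcy4 (2.63-fold lower) were again the 2 genes of 17 past 2-fold, 5.88% each way beside 8.33% and 7.49% of all genes, and the median was -0.04.

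PKA subunits, inhibitors and anchors had 16 of 26 genes on the arrays. Of 13 compared on FGFR3Act against FGFR3WT, 1 was at least 2-fold higher and 0 lower (median -0.05), beside 4.14% and 4.79% of all genes. It was Pkib, a second PKA inhibitor gene, with a signal of 400 on FGFR3Act and values below the floor on FGFR3KO (16.6) and FGFR3WT (34.2), and it was at least 3.32-fold higher than on FGFR3WT. The third inhibitor gene, Pkig, had 468 on FGFR3Act and 434 on FGFR3KO, against 614 on FGFR3WT. Pkib was thus highest on FGFR3Act, and Pkia and Pkig on FGFR3WT. Pkib was high on the array with the macrophage markers, whose part in it was not tested. On FGFR3KO, 0 of 12 were at least 2-fold higher than on FGFR3WT and 1, Pkia, was lower (median -0.03), beside 1.93% and 3.61% of all genes. Between the mutants 2 of 13, Pkia and Pkib, were higher on FGFR3Act by 2-fold or more and 0 lower (median 0.25), beside 8.33% and 7.49% of all genes. Counts of 1 or 2 genes say little about the list. The other catalytic subunit gene, Prkacb, had 1886 on FGFR3Act and 1708 on FGFR3KO, against 1724 on FGFR3WT, within 1.10-fold of each other. Prkar1b, a regulatory subunit gene chosen after its values were seen, had 519 on FGFR3Act and 410 on FGFR3KO, against 268 on FGFR3WT, 1.94-fold and 1.53-fold higher. Its other probe set gave log2 differences of at least 1.41 and 0.97 in these pairs.

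The list of phosphodiesterases had 7 of 17 genes on the arrays. Among them Pde4dip, compared in every pair, encodes a protein that binds a phosphodiesterase and is not itself one. Of 6 compared with FGFR3WT, 0 were higher by 2-fold or more and 1 was lower on each mutant array, with medians of -0.38 for FGFR3Act and -0.46 for FGFR3KO. Over all genes 4.14% were that much higher and 4.79% lower on FGFR3Act, and 1.93% higher and 3.61% lower on FGFR3KO. A count of 0 or 1 of 6 says little about the list. It was Pde7a, a cAMP-specific enzyme, with 128 on FGFR3Act and 147 on FGFR3KO, against 366 on FGFR3WT. It was 2.86-fold lower on FGFR3Act and 2.49-fold lower on FGFR3KO. The mutant signals were not far above the floors (123 on FGFR3Act and 122 on FGFR3KO), so the size of these folds is uncertain. Both comparisons use the same FGFR3WT array. None of 5 was 2-fold apart between the mutants (median -0.20), beside 8.33% higher and 7.49% lower of all genes. With 5 genes this count too says little.

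The list of the CREB family and coactivators had 6 of 19 genes on the arrays and 5 compared in each pair. Among the 5 were Nfil3 and the phosphatase gene Ppp2ca, which are neither CREB family nor coactivator genes. The counts and medians therefore describe the list and not that family alone. Crem (higher) and Nfil3 (lower) were the 2 past 2-fold on FGFR3Act against both other arrays. Over all genes 4.14% were higher and 4.79% lower against FGFR3WT, and 8.33% and 7.49% against FGFR3KO. On FGFR3KO against FGFR3WT 0 of 5 were past 2-fold, beside 1.93% higher and 3.61% lower of all genes. With 5 genes these counts say little about the list. The medians were -0.33 for FGFR3Act against FGFR3WT, 0.20 for FGFR3KO against FGFR3WT and -0.47 between the mutants. The coactivator gene Crebbp, whose product binds phosphorylated CREB, had 570 on FGFR3Act and 791 on FGFR3KO, against 749 on FGFR3WT.

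The list of cAMP response genes had 29 of 35 genes on the arrays, 22 of them compared in each pair, and many of them also answer growth factors through ERK. Part of the list had been seen to differ in earlier results, so its counts are no independent evidence. On FGFR3Act against FGFR3WT, 4 were at least 2-fold higher and 1 lower, with a median of 0.39. That is 18.2% and 4.55% of them, beside 4.14% and 4.79% of all genes. The 4 were cyclin D1 (Ccnd1, 3.94-fold), the prostaglandin synthase Ptgs2 (3.32-fold), the stress-induced factor Atf3 (3.08-fold) and Crem, and the 1 was Nfil3. The other probe sets gave smaller log2 differences, 0.79 for Ccnd1, against 1.98 in the brighter one, and at least 0.42 for Atf3, against 1.62. The macrophage markers were high on this array (summed signal 42153, against 1136 on FGFR3WT), and their part in these differences was not tested.

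On FGFR3KO against FGFR3WT, 0 of 22 response genes were at least 2-fold higher and 2 were lower, with a median of -0.12. That is 0% and 9.09% of them, beside 1.93% and 3.61% of all genes. The serum- and glucocorticoid-regulated kinase Sgk1 had 2041 on FGFR3Act and 767 on FGFR3KO, against 2152 on FGFR3WT, 2.81-fold lower on FGFR3KO. The AP-1 subunit gene Fos had 836 on FGFR3Act and 317 on FGFR3KO, against 646 on FGFR3WT, 2.04-fold lower on FGFR3KO. Between the mutants 8 of 22 were higher on FGFR3Act by 2-fold or more and 1, Nfil3, lower, with a median of 0.59. That is 36.4% and 4.55% of the genes, beside 8.33% and 7.49% of all genes. Among genes above the floor on both arrays, the 4 furthest apart by their brighter probe set were Ccnd1 (4.74-fold), Ptgs2 (4.27-fold), Dusp1 (2.68-fold) and Sgk1 (2.66-fold). The other Ccnd1 probe set, above the floor on every array, gave a log2 difference of only 0.33 between the mutants, against 2.24, and of 0.46 on FGFR3KO against FGFR3WT, where the brighter one gave -0.27. Rgs2, below the floor on FGFR3KO, was at least 2.01-fold higher on FGFR3Act and has no rank among them. Of 16 macrophage markers 13 were above the floor on FGFR3Act, against 1 on FGFR3KO, and their part in this shift was not tested. Leaving out the genes described first, 7 of 18 were at least 2-fold higher and 0 lower, with a median of 0.75. Nr4a1, at 1.38-fold, stood below the genes past 2-fold in this pair.

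**Figure D4:**
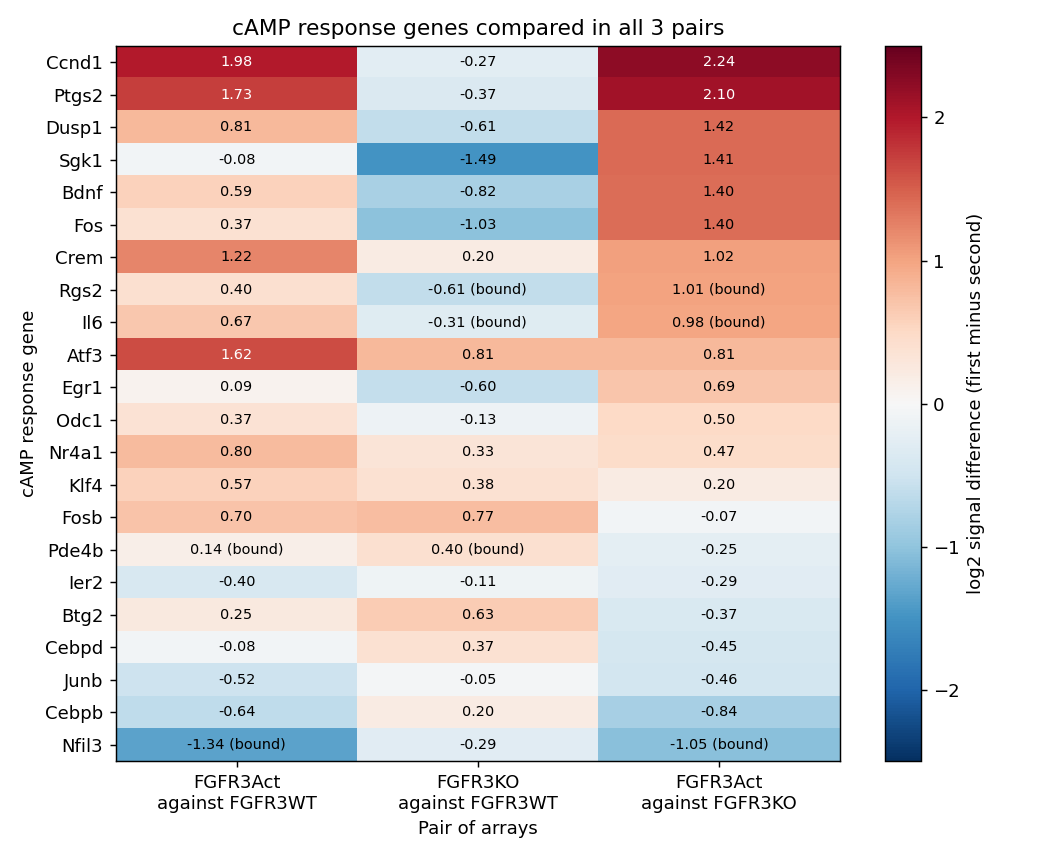
Differences in log2 signal (first array minus second, colour and number) of the 22 cAMP response genes for the 3 pairs of arrays, ordered by FGFR3Act against FGFR3KO, with bounds marked. The upper rows are red for FGFR3Act against FGFR3KO, with Ccnd1 at 2.24 in its brighter probe set (0.33 in its other one), and Nfil3 is at the bottom at -1.05.

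Genes with the most similar signals across the 3 arrays were found by the distance between log2 signals, each centred on its own mean, for the 3 genes whose highest and lowest arrays were at least 2-fold apart. With 3 arrays many genes fit closely, and likeness here is a description only. For Crem the nearest of 4502 genes were Vps51 (distance 0.02), Txnrd1 (0.03) and Myo5a (0.05). For Nfil3 the nearest of 4729 were Smndc1 (0.02), Sirt2 (0.02) and Atp13a1 (0.04). For Pkia the nearest of 4502 were Ube2h (0.31), Parm1 (0.35) and Cmas (0.35), which lay further off than the neighbours of the other genes. Parm1 had signals of 703 on FGFR3Act and 223 on FGFR3KO, against 674 on FGFR3WT.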

How the data were processed

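The deposited values are intensities, 1 for each probe set and sample, made with MAS5 per the submitters' processing notes; no source used here gives its version, its scaling target or detection calls. From 15 μg of total RNA, biotinylated cRNA was made per the labels' protocols. Of 9889 probe sets, 18 controls were left out, 9039 had 1 symbol, 323 several and 509 none listed; GEO's platform annotation was updated through RefSeq gene IDs (GRCm38.p6). The probe set of highest mean log2 signal stood for its gene.

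The floor was the 40th percentile of each array and log2 was taken after it, with no further scaling. Counts of genes 2-fold or more apart describe size only. With 1 array per genotype no test was made, and the number of arrays limits the precision. The arithmetic was tested on simulated data. The members, lists and rules for named genes were chosen with earlier results of these data known. Named are all members, up to 4 genes per wider list and pair that were at least 2-fold apart, the 3 nearest profiles, and genes that complete a count of 5 or fewer. Crebbp, Prkacb, Pkig, Prkar1b and Btg2 were added after their values were seen. Dio2, a known cAMP target, was also named outside these rules. The 10 alternatives were quantile normalisation, cyclic loess (limma 3.58.1, R 4.3.3), median centring, floors at percentiles 20 and 60, log2 of signal plus 16, 2 other filters, the mean over probe sets, and leaving out _s_ and _x_ probe sets. Python 3.11.15 with pandas 2.3.3 and numpy 2.4.6 was used.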

Additional observations from a re-analysis of the deposited data

How the results depend on the processing

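Of 21 differences of single genes, 20 kept their sign under each of the 10 alternatives in which they could be computed, and Prkaca on FGFR3Act against FGFR3WT took both. Crem ranged from 0.92 to 1.36 in log2 on FGFR3Act against FGFR3WT, Nfil3 from -1.48 to -1.20, and Pkia on FGFR3KO against FGFR3WT from -2.05 to -1.02. With the floor at the 60th percentile 4 of the genes remained to compare, and 0 were then 2-fold higher and 0 lower on FGFR3Act against FGFR3WT, and 1 higher and 0 lower against FGFR3KO. Crem was under 2-fold with the mean over its probe sets and not measured without _s_ probe sets, which left 0 genes higher on FGFR3Act against FGFR3WT in either case. Between the mutants these settings left 0 and 1 higher, and the offset left 1. Nfil3, at the floor on FGFR3Act, dropped out where both arrays had to be above it, which left 0 lower in both pairs.

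Over all genes, FGFR3Act against FGFR3WT gave 458 higher and 432 lower when the floor was the 20th percentile, 118 and 140 at the 60th, 137 higher with both arrays above the floor, and 160 lower after median centring, where 292 were higher. FGFR3KO against FGFR3WT gave 271 and 321 at the 20th percentile, 50 and 93 at the 60th, and 154 and 124 after median centring. FGFR3Act against FGFR3KO gave 614 lower at the 20th percentile and 274 higher and 234 lower at the 60th. Median centring moved the median of all genes by 0.14 on FGFR3Act and 0.11 on FGFR3KO against FGFR3WT, so differences smaller than this depend on the scaling.

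Medians of lists moved as follows. At the 60th percentile the list of phosphodiesterases gave -0.13 on FGFR3Act and -0.053 on FGFR3KO against FGFR3WT. At the 20th percentile cAMP production gave 0.31 on FGFR3KO against FGFR3WT. The list of the CREB family and coactivators turned to 0.0093 on FGFR3Act against FGFR3WT with both arrays above the floor, where Nfil3 was left out. It gave -0.20 between the mutants both there and at the 20th percentile. With no filter the response genes gave 0.0086 between the mutants, as genes at the floor on both arrays then entered. No paired analysis was possible because each genotype has 1 array. Signals at or below the floor limit Creb1, Per1, Pde4b and Nfil3. Signals not far above it limit Crem on FGFR3KO and FGFR3WT, Adcy4 on FGFR3Act and FGFR3WT, and Pde7a on both mutant arrays.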

Other observations

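All genes with a promoter window were also grouped by the cAMP response element, without regard to what is known of them. On FGFR3Act against FGFR3WT, 5 of 154 genes with the full element were at least 2-fold higher (3.25%) and 9 lower (5.84%), against 36 (2.51%) and 47 (3.28%) of 1435 genes with the short element alone, and 119 (4.44%) and 132 (4.93%) of 2679 with neither. On FGFR3KO against FGFR3WT, 4 of 152 were higher (2.63%) and 7 lower (4.61%), against 1.33% and 3.71% of 1429 genes with the short element alone, and 2.12% and 3.44% of 2643 with neither. Between the mutants 18 of 156 were higher on FGFR3Act (11.5%) and 10 lower (6.41%), against 117 (8.11%) and 90 (6.24%) of 1443 genes with the short element alone, and 217 (8%) and 216 (7.97%) of 2711 with neither. The medians of the genes with the full element were -0.12, -0.17 and 0.00 in these pairs. None of these shares was tested.

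The 5 genes with the full element that stood 2-fold or more above FGFR3WT on the FGFR3Act array were Ch25h (6.23-fold), Rcan1 (3.10-fold), Zfand2a (2.39-fold), Rap1b (at least 2.29-fold) and Retreg1 (2.14-fold). The macrophage markers had a summed signal of 42153 on FGFR3Act, against 1251 on FGFR3KO and 1136 on FGFR3WT, and their part in these differences was not tested. Ch25h makes 25-hydroxycholesterol, and had signals of 1505 on FGFR3Act and 168 on FGFR3KO, against 241 on FGFR3WT. Rcan1, an inhibitor of calcineurin, had 1521 on FGFR3Act and 478 on FGFR3KO, against 491 on FGFR3WT. Dio2, which activates thyroid hormone and is a known cAMP target, went the other way against wild type, with 287 on FGFR3Act and 129 on FGFR3KO, against 584 on FGFR3WT. In the promoter windows of 26 response genes, 4 held the full element (15.4%) and 24 the short one (92.3%), against 2.03% and 23.0% of all 27025 genes with a window. The response genes were listed because they are known to answer cAMP, so these shares describe the list.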
